A study of Xenopus laevis with 15 samples.

Results

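Whole bodies of the African clawed frog, Xenopus laevis, kept in water with the lower of 2 levels of lead(II) nitrate were compared with bodies kept in water alone. The comparison is between 10 of the 15 libraries of the study, namely all 5 of the lead 210 group and all 5 controls, chosen by their labels. It covers every gene in the count table. Embryos 48 h old, near stage 29 of the Nieuwkoop and Faber series, were exposed in petri dishes for 96 h at 21 °C, and the tadpoles were 6 days old when collected. Each library was made from a pool of 3 individuals, and the replicates are lettered A to E in each group. The third group, lead 630, received the higher level of the same salt. Its 5 libraries entered the filter, the scaling and the estimate of spread, so the p-values also rest on them. The unit of the lead levels differs between 2 places in the labels (ng/L in the sample titles, µg/L in the description of the exposure), so the groups are named here without one. Whether pools of a group came from different dishes or different parents is not stated, so the p-values measure only the spread between the pools of the 3 groups. Because whole bodies were homogenized, fewer cells of a type and less RNA per cell cannot be told apart.

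Animals meet a toxic metal or a reactive chemical with a set of genes under the transcription factor NRF2, which the sensor protein KEAP1 normally marks for destruction. These genes make glutathione and thioredoxin, supply NADPH, reduce or conjugate reactive molecules and pump the products out of the cell. Metals are also bound by metallothionein and ferritin, and misfolded secreted proteins call up chaperones of the endoplasmic reticulum (ER). The question put to the lower lead level was which gene families and which tissues of the young tadpole changed.

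Of 37018 genes in the table, 27060 had enough counts to be tested, and 515 of them (1.9%) passed an adjusted p of 0.05 in edgeR's quasi-likelihood test, here called genes. Of these, 476 were higher at lead 210 (1.76% of the genes tested) and 39 were lower (0.144%). The change reached 2-fold or more in 150 of the higher and 6 of the lower genes. The median log2 fold change of all tested genes was -0.002, that of the higher called genes was 0.72 and that of the lower called genes was -0.50. All 5 lead 210 libraries lay above all 5 controls in 796 genes (2.94%) and below them in 288 genes (1.06%). Among the called genes, 435 of the higher and 32 of the lower ones had groups that did not overlap. Levels are given in CPM, the counts per 1000000 counts of a library, scaled for library composition. A level with ± is a mean with its SD over the 5 pools of a group, and a log2 fold change with ± is the fitted estimate with its SE.

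The genes were read through 69 lists, 46 of gene families and pathways and 23 of tissues. Lists and members were chosen with earlier results of these data known. A high share of called members is therefore a description, not a test against the 1.9% of all genes tested. In 35 lists the called members were all higher, in 6 all lower, in 5 both ways, and in 23 lists no member was called. The lists held 204 of the 515 called genes. The remaining 311 belonged to none, and 99 of the 515 carried only placeholder symbols.

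**Figure D1:**
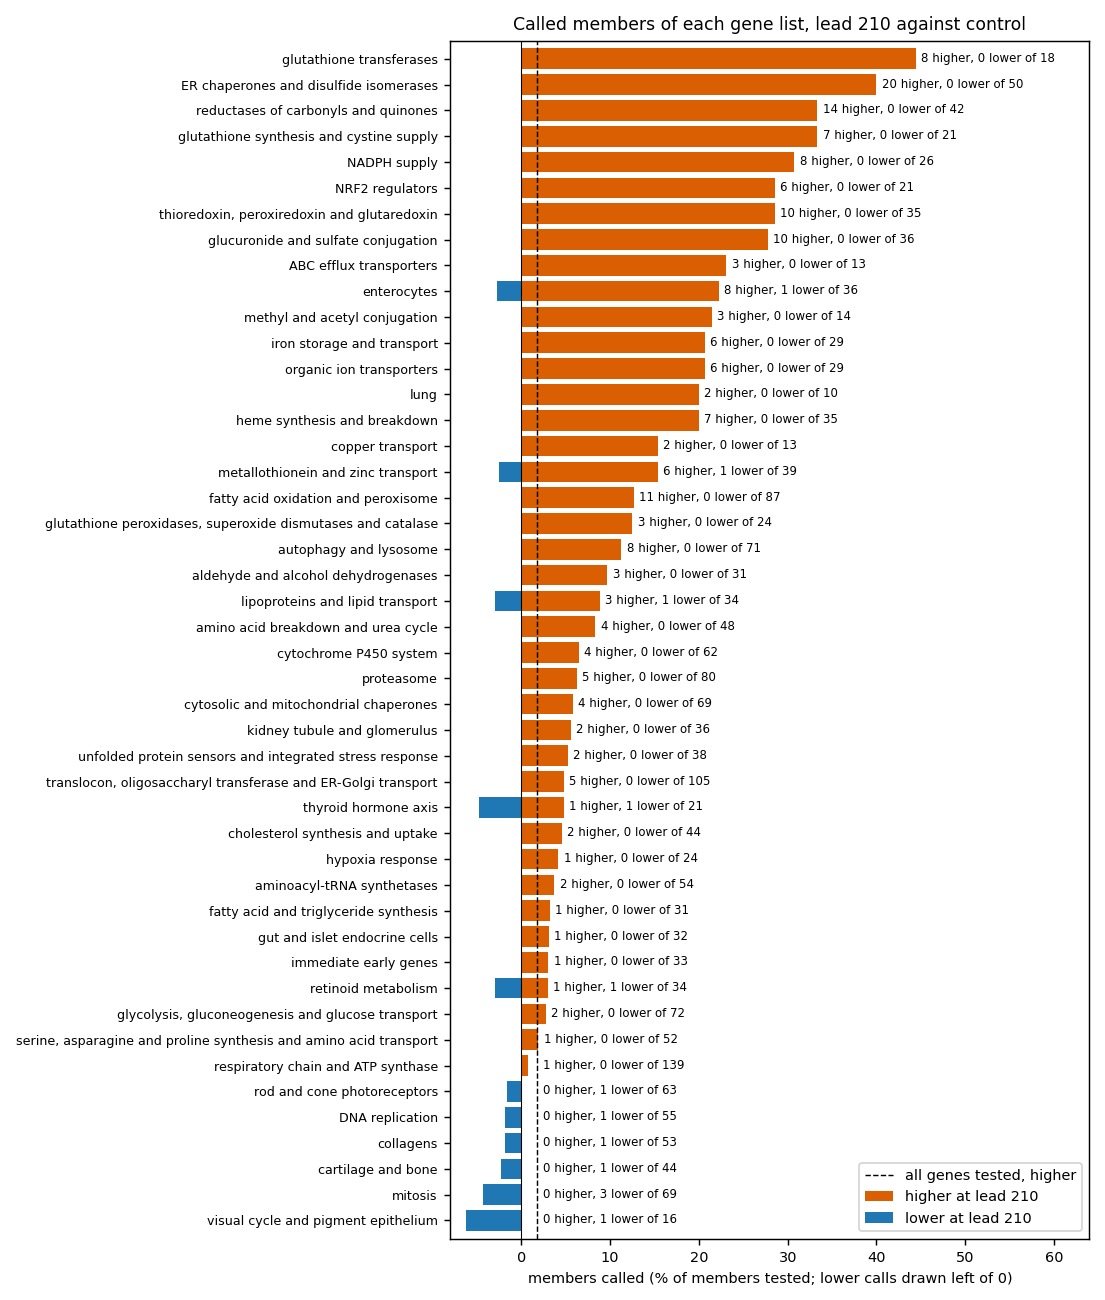
Share of the tested members of each gene list that was called higher (bars to the right) or lower (bars to the left) at lead 210, in percent, with the counts printed beside each bar; the dashed line is the share of all genes tested that was called higher, 1.76%. The lists of glutathione transferases (8 of 18), ER chaperones (20 of 50), carbonyl and quinone reductases (14 of 42) and glutathione synthesis (7 of 21) had the highest shares, and the 6 lists with lower calls alone had 1 to 3 such members. The lists were chosen with earlier results of these data known, so the shares are descriptive.

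Total counts ran from 12550450 to 24281267 in the controls and from 13367463 to 22321568 at lead 210, with scaling factors between 0.981 and 1.03. In a principal component analysis of all 15 libraries the first component (20.3% of the variance) did not separate the groups: control A and control B lay at one end (-44.4 and -39.5) and lead 210 E at the other (40.8). In each of the 3 groups, pools A and B lay lowest on it, C next, and D and E highest. The component thus ran along the replicate letters, whose meaning is not stated. On the second component (17.2%) all 5 controls (14.1 to 34.7) lay above all 5 lead 210 pools (-29.7 to 3.62). Control B also carried far more transcripts of several digestive enzymes than the other controls, as described below for the pancreas. Leaving out 1 library at a time gave 355 to 488 called genes, the fewest without control A. The lower genes, 39 with all libraries, were 12 without lead 210 D, 17 without control A, 17 without control B and 19 without lead 210 A. A floor of 3 counts corresponded to 0.124 to 0.243 CPM in these 10 libraries and covers counting error only.

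Glutathione, the tripeptide that binds soft metals and feeds the conjugating enzymes, had 7 of 21 tested genes of its synthesis and supply called. All 7 were higher, and over the 21 genes the median log2 fold change was 0.07. The rate-limiting enzyme glutamate-cysteine ligase is built from a catalytic subunit, gclc, and a modifier subunit, gclm. The catalytic gene gclc.S had 14.2, 18.8, 15.8, 14.4 and 15.13 CPM in control pools A to E and 37.6, 46.8, 47.7, 48.03 and 56.98 CPM in lead 210 pools A to E. Every exposed pool was above every control, and the log2 fold change was 1.60 ± 0.10 (adjusted p = 1.49e-08). The modifier gclm.L had 27.6, 30.5, 29.7, 26.6 and 26.6 CPM in control pools A to E and 87.7, 79.8, 90.98, 84.9 and 159 CPM in lead 210 pools A to E, a log2 fold change of 1.83 ± 0.18 (adjusted p = 1.23e-05). Lead 210 E, at 159 CPM, was far above the other 4 exposed pools, which were themselves above all controls. Glutathione synthetase (gss.L) rose from 23.1 ± 0.839 to 49.97 ± 9.38 CPM, and glutathione reductase (gsr.L), which returns oxidized glutathione to its reduced form, rose from 22.6 ± 3.503 to 78.2 ± 16.3 CPM. Supply of cysteine was represented by cystathionine gamma-lyase (cth.L), which rose from 46.4 ± 6.65 to 101 ± 8.65 CPM, and by the cystine importer slc7a11.S. The latter was close to the floor in controls, at 0.286, 0.639, 0.455, 0.567 and 0.277 CPM, and 2.83, 2.05, 2.88, 1.73 and 4.31 CPM at lead 210, so the size of its log2 fold change of 2.64 ± 0.34 (adjusted p = 8.78e-05) is uncertain.

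Glutathione transferases, which attach glutathione to reactive molecules, had 8 of 18 tested members called, all higher, with a list median of 0.39. The largest change belonged to the pi-class gene gstp1.L, with 12.01, 16.3, 64.2, 23.5 and 21.2 CPM in control pools A to E and 457, 472, 433, 378 and 591 CPM in lead 210 pools A to E. Control C stood at 64.2 CPM, above the other controls, and still far below the lowest exposed pool. The log2 fold change was 4.07 ± 0.41 (adjusted p = 6.05e-05). The zeta-class gene gstz1.L rose from 15.6 ± 2.49 to 103 ± 26.1 CPM, the alpha-class gene gsta1.L from 15.04 ± 2.14 to 52.6 ± 12.4 CPM, the theta-class gene gstt1.L from 131 ± 24.1 to 300.5 ± 29.5 CPM and the microsomal mgst1.L from 36.2 ± 5.97 to 79.1 ± 8.33 CPM. An omega-class gene known only by the placeholder LOC108696140, named glutathione S-transferase omega-1-like in the authors' deposited table, rose from 37.8 ± 5.86 to 242 ± 79.03 CPM. It was chosen after its values were seen.

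The second thiol system, thioredoxin and its partners, had 10 of 35 tested members called, all higher, with a median of 0.18. Thioredoxin itself, txn.L, had 26.1, 28.6, 21.9, 25.98 and 23.3 CPM in control pools A to E and 103, 95.4, 96.1, 106 and 157 CPM in lead 210 pools A to E. The groups were far apart, and lead 210 E was the highest exposed pool. Its log2 fold change was 2.15 ± 0.16 (adjusted p = 3.47e-07). Thioredoxin reductases keep thioredoxin reduced. The cytosolic txnrd1.S had 1.49, 1.35, 3.51, 1.700 and 3.66 CPM in control pools A to E and 12.2, 14.2, 14.4, 11.5 and 17.4 CPM in lead 210 pools A to E, with no overlap between the groups and a log2 fold change of 2.52 ± 0.22 (adjusted p = 1.4e-06). Its homeolog txnrd1.L rose from 3.99 ± 0.469 to 14.6 ± 2.91 CPM, txnrd3.L from 73.1 ± 5.83 to 169 ± 8.34 CPM and the glutaredoxin glrx.S from 29.9 ± 3.24 to 90.6 ± 8.08 CPM. The peroxiredoxin prdx1.L, chosen after its values were seen, rose from 114 ± 17.3 to 165 ± 13.4 CPM, a call lost with homeologs summed (adjusted p = 0.115). Of the enzymes that remove peroxide and superoxide, 3 of 24 tested were called, all higher: both copies of the glutathione peroxidase gpx1 and the copper-zinc superoxide dismutase sod1.L. The copy gpx1.L rose from 55.8 ± 8.93 to 163 ± 34.9 CPM and gpx1.S from 6.32 ± 0.492 to 11.6 ± 1.83 CPM. The gene sod1.L rose from 86.1 ± 10.1 to 114 ± 6.39 CPM (log2 fold change 0.41 ± 0.081), a call lost with homeologs summed (adjusted p = 0.0724). The list's count was then 1, and it was 5 with DESeq2. An entry LOC108700963, named sulfiredoxin-1-like in the authors' deposited table and chosen after its values were seen, rose from 1.01 ± 0.426 to 12.2 ± 4.17 CPM. Sulfiredoxin restores over-oxidized peroxiredoxins.

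Genes that regulate NRF2 were called higher in 6 of 21 tested, with a median of 0.09. That median varied between the lead 210 pools with an SD of 0.096. The cargo receptor sqstm1.L (p62), which competes with NRF2 for KEAP1, had 108, 132, 123, 96.5 and 117 CPM in control pools A to E and 316, 319, 351, 318 and 379.6 CPM in lead 210 pools A to E, and every exposed pool was above every control (log2 fold change 1.55 ± 0.11, adjusted p = 6.5e-08). The NRF2-inducible gene osgin1.L rose from 4.41 ± 1.16 to 21.4 ± 4.59 CPM. Both copies of keap1 rose: keap1.L from 11.3 ± 1.52 to 19.9 ± 1.83 CPM and keap1.S from 9.899 ± 1.45 to 16.9 ± 2.34 CPM. The repressor bach1.S, which competes for the same DNA sites, rose from 3.04 ± 0.438 to 5.23 ± 1.08 CPM. The transcripts of NRF2 itself did not pass. The gene nfe2l2.L had 166 ± 10.97 CPM in controls and 158 ± 9.68 CPM at lead 210, and nfe2l2.S had 58.1 ± 4.701 CPM in controls and 58.03 ± 4.35 CPM at lead 210.

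NADPH is the reductant on which both thiol systems and many reductases run. Of 26 tested genes that supply it, 8 were called, all higher, with a median of 0.17. The malic enzyme me1.L had 24.6, 28.5, 27.99, 27.7 and 28.1 CPM in control pools A to E and 53.9, 61.98, 54.3, 57.2 and 55.7 CPM in lead 210 pools A to E. The 2 groups were far apart relative to their spread (log2 fold change 1.05 ± 0.067, adjusted p = 1.49e-08). In the pentose phosphate pathway the dehydrogenase pgd.L rose from 32.2 ± 2.03 to 50.2 ± 4.15 CPM and the transketolase tkt.L from 129.98 ± 10.6 to 194 ± 26.7 CPM. The cytosolic isocitrate dehydrogenase idh1.S rose from 26.4 ± 3.08 to 42.01 ± 1.24 CPM.

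Enzymes that spend NADPH on carbonyls and quinones had 14 of 42 tested members called, all higher, with a median of 0.25, and the summed level of the list was 984, 1050.2, 1071, 982 and 1060.4 CPM in control pools A to E and 2498, 2757, 2218, 2099 and 3002 CPM in lead 210 pools A to E. The exposed sums were all far above the control sums. The NADPH-binding redox sensor nmral1 was among the genes with the largest changes. Its abundant copy nmral1.S had 45.97, 86.4, 27.2, 44.8 and 29.3 CPM in control pools A to E and 583, 665, 499, 384 and 869 CPM in lead 210 pools A to E, with a log2 fold change of 3.69 ± 0.36 (adjusted p = 4.12e-05). The copy nmral1.L had 0.172, 0.07101, 0.413, 0.324 and 0.7203 CPM in control pools A to E and 14.1, 8.78, 9.07, 8.32 and 19.2 CPM in lead 210 pools A to E. Its controls were at or near the floor, so its log2 fold change of 5.03 ± 0.37 (adjusted p = 3.47e-07) depends on few counts in controls. Prostaglandin reductase ptgr1.1.L, which also reduces unsaturated aldehydes, had 31.8, 31.6, 38.1, 30.8 and 38.7 CPM in control pools A to E and 265, 260.5, 179, 206 and 304 CPM in lead 210 pools A to E and a log2 fold change of 2.83 ± 0.14 (adjusted p = 3.67e-09). Carbonyl reductase cbr1.1.L rose from 56.3 ± 9.96 to 428 ± 123 CPM, the quinone reductase nqo1.L from 36.6 ± 1.82 to 75.8 ± 8.77 CPM, and the aldo-keto reductase akr1c2.L from 16.1 ± 2.699 to 125 ± 49.05 CPM. For akr1c2.L lead 210 B was at 211 CPM and the other 4 exposed pools between 94.4 and 124 CPM. The gene akr1c4.S, which the authors' deposited table names rho crystallin-like, rose from 8.41 ± 2.52 to 31.3 ± 1.702 CPM.

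**Figure D2:**
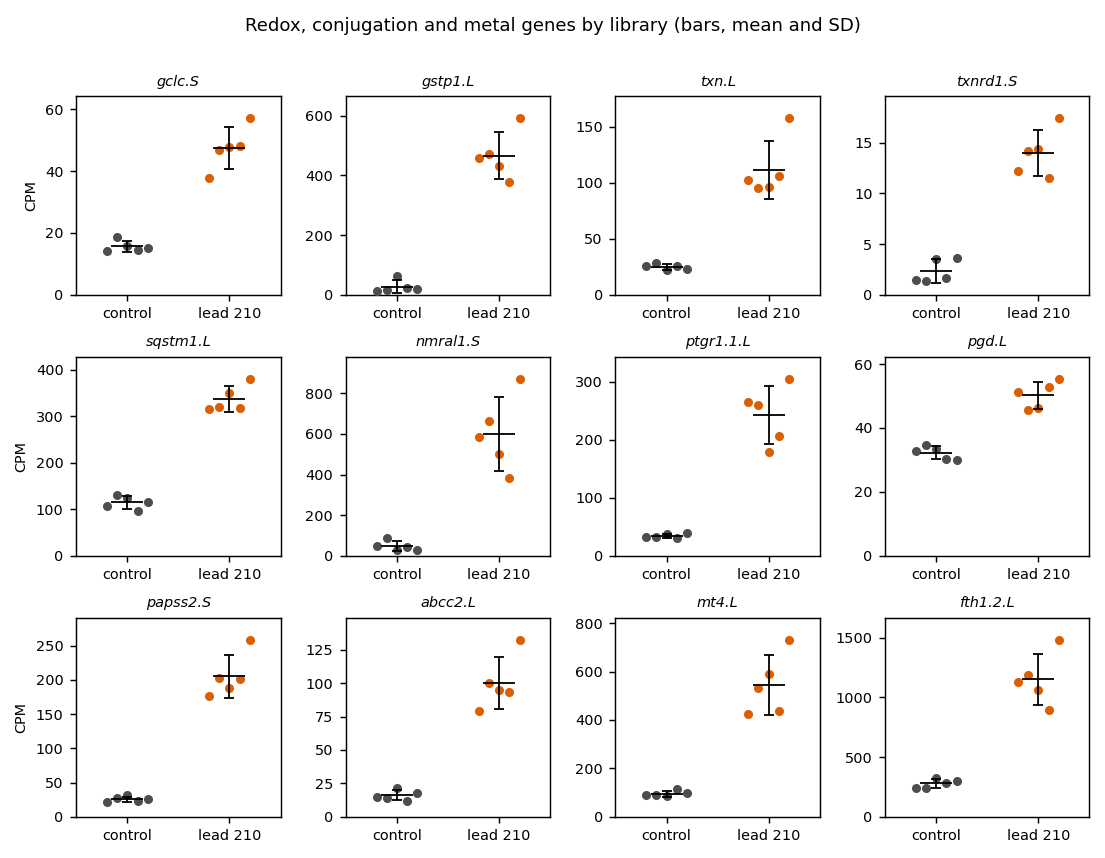
CPM of 12 redox, conjugation and metal genes in each control (grey) and lead 210 (orange) library, each on its own linear axis from 0; points are pools A to E from left to right, and black bars give the mean and SD (n = 5). In all 12 genes every lead 210 pool lies above every control. They were picked among the 476 called higher genes, 435 of which showed such a separation, so it goes with that choice. Of all genes tested 2.94% showed it.

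Genes at several steps of the supply for sulfate conjugation were called. Sulfotransferases take sulfate from the carrier molecule PAPS, and PAPS is made by papss2 from sulfate that transporters bring into the cell. The PAPS synthase papss2.S, which the authors' deposited table lists as papss2.L, had 21.3, 26.99, 31.05, 22.7 and 26.4 CPM in control pools A to E and 177, 202, 187, 201 and 258 CPM in lead 210 pools A to E. No other named gene had a smaller p (log2 fold change 2.99 ± 0.13, adjusted p = 2.63e-10). Its homeolog papss2.L rose from 12.1 ± 2.57 to 26.8 ± 5.33 CPM. Of the list of glucuronide and sulfate conjugation, 10 of 36 tested were called, all higher, with a median of 0.21. The steroid sulfotransferases sult2a1.L and sult2b1.L rose from 17.3 ± 3.73 to 45.3 ± 5.86 CPM and from 9.98 ± 1.86 to 28.7 ± 6.31 CPM. The glucuronosyltransferase ugt1a1.L rose from 7.54 ± 1.97 to 28.4 ± 4.62 CPM, and ugdh.L, which makes its sugar donor, rose from 15.3 ± 2.12 to 24.8 ± 2.44 CPM.

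Sulfate carriers act upstream of papss2. The sodium-sulfate cotransporter slc13a1, known from kidney tubule and intestine of mammals, was called in both copies, the only called members of the 36 kidney genes tested, where the count was 4 without lead 210 D. The copy slc13a1.L had 6.75, 10.2, 9.22, 4.13 and 6.09 CPM in control pools A to E and 29.4, 42.7, 25.8, 26.1 and 31.6 CPM in lead 210 pools A to E, with no overlap and a log2 fold change of 2.08 ± 0.29 (adjusted p = 0.000738). The copy slc13a1.S had 1.03, 1.35, 1.12, 2.51 and 1.22 CPM in control pools A to E and 4.57, 3.66, 5.23, 2.86 and 6.24 CPM in lead 210 pools A to E. Control D at 2.51 CPM stood above the other controls, and the groups did not overlap (log2 fold change 1.68 ± 0.31, adjusted p = 0.00546). The sulfate and anion exchangers slc26a2.L and slc26a1.L, chosen after their values were seen, rose from 2.51 ± 0.5104 to 16.4 ± 2.499 CPM and from 11.2 ± 1.76 to 26.5 ± 4.51 CPM. The persulfide dioxygenase ethe1.S rose from 13.6 ± 2.94 to 55.2 ± 4.64 CPM and the thiosulfate sulfurtransferase tstd1.S from 31.98 ± 4.06 to 74.4 ± 10.96 CPM. The entry LOC108719568, named thiosulfate sulfurtransferase-like in the authors' deposited table, had 0.457, 0.355, 2.11, 0.8904 and 1.88 CPM in control pools A to E and 46.5, 64.5, 40.8, 48.03 and 60.6 CPM in lead 210 pools A to E. Its controls were near the floor, so the size of its log2 fold change of 5.39 ± 0.33 (adjusted p = 1.62e-07) is uncertain. Sulfide quinone oxidoreductase, the enzyme that hands sulfide to the persulfide dioxygenase in mitochondria, rose in both copies, sqor.L from 36.3 ± 3.91 to 62.7 ± 7.04 CPM and sqor.S from 44.6 ± 3.45 to 62.4 ± 2.62 CPM. The last 5 were chosen after their values were seen.

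Of 14 tested genes of methyl and acetyl conjugation 3 were called, all higher and all methyltransferases: both copies of catechol O-methyltransferase, comt.L (from 15.6 ± 2.64 to 39.4 ± 3.76 CPM) and comt.S (from 7.16 ± 0.658 to 13.04 ± 0.571 CPM), and the thiopurine S-methyltransferase tpmt.L (from 4.88 ± 0.882 to 8.64 ± 1.74 CPM). A relative of the last, LOC108704455, probable thiopurine S-methyltransferase in the authors' deposited table, had 2.69, 3.76, 6.04, 5.099 and 5.82 CPM in control pools A to E and 77.9, 98.6, 85.9, 70.1 and 129 CPM in lead 210 pools A to E. It was also chosen after its values were seen, and its groups were far apart (log2 fold change 4.28 ± 0.21, adjusted p = 9.34e-09).

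Cytochrome P450 enzymes carry out the first, oxidizing step of drug metabolism. Of 62 tested genes of the cytochrome P450 system 4 were called, all higher, with a median of 0.13 (DESeq2 called 6 higher and 1 lower), and 3 of the 4 belong to the CYP3A subfamily. The gene cyp3a5.L rose from 56.9 ± 17.6 to 124 ± 24.6 CPM, cyp3a4.1.L from 9.51 ± 3.27 to 22.4 ± 4.71 CPM and cyp3a4.2.L from 33.9 ± 9.07 to 71.6 ± 18.02 CPM. The call of cyp3a4.2.L was lost when control A, D or E or exposed pool A or E was dropped (largest adjusted p 0.109), and without a filter (adjusted p = 0.0536). Reads of such related copies may have been shared, so their separate values are uncertain. The fourth, cyp4b1.2.L, rose from 28.8 ± 2.501 to 42.6 ± 3.12 CPM. Of 31 aldehyde and alcohol dehydrogenases 3 were called, all higher, among them aldh1a1.L (from 40.5 ± 6.87 to 94.6 ± 10.5 CPM) and aldh3a2.L (from 45.1 ± 4.62 to 69.8 ± 4.59 CPM). The alcohol dehydrogenase adh1-a had 0.172, 0.284, 0.248, 0.324 and 0.332 CPM in control pools A to E and 2.97, 2.05, 1.11, 1.32 and 5.51 CPM in lead 210 pools A to E, at or near the floor in controls. Its call was lost when control A, B, C, D or E or exposed pool A, B or E was dropped (largest adjusted p 0.134). It was also lost without a filter, with limma-voom and with the replicate letter as a further term (largest adjusted p of these settings 0.152).

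Of 13 tested ABC transporters that export conjugates 3 were called, all higher, with a median of 0.26. The organic anion pump abcc2.L (MRP2), which carries glutathione and glucuronide conjugates into bile and gut, had 14.5, 14.3, 21.7, 11.9 and 17.7 CPM in control pools A to E and 79.4, 99.8, 94.8, 93.5 and 132 CPM in lead 210 pools A to E. All exposed pools were above all controls (log2 fold change 2.63 ± 0.17, adjusted p = 1.58e-07). The related pump abcc4.L rose from 4.84 ± 1.65 to 16.1 ± 2.75 CPM and the breast cancer resistance protein gene abcg2.L from 33.9 ± 3.91 to 52.3 ± 2.83 CPM. Among carriers of organic ions, 6 of 29 were called, all higher. The carnitine and ergothioneine transporter slc22a4.S had 1.49, 1.63, 1.32, 0.809 and 1.16 CPM in control pools A to E and 10.9, 13.9, 7.74, 11.5 and 11.5 CPM in lead 210 pools A to E and a log2 fold change of 3.09 ± 0.19 (adjusted p = 1.37e-08), and its homeolog slc22a4.L rose from 3.91 ± 0.681 to 11.9 ± 2.91 CPM. The authors' deposited table names slc22a4.S as solute carrier family 22 member 5-like. The organic anion transporter slc22a6.S rose from 3.39 ± 0.452 to 12.9 ± 3.91 CPM and slc22a8.S from 4.63 ± 0.425 to 11.2 ± 2.64 CPM.

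Metallothionein is a small cysteine-rich protein that binds zinc, copper, cadmium and lead. The gene mt4.L had 88.2, 88.7, 87.5, 116 and 96.7 CPM in control pools A to E and 426, 533, 589.6, 438 and 729 CPM in lead 210 pools A to E. The groups were far apart (log2 fold change 2.51 ± 0.15, adjusted p = 2.19e-08). The placeholder LOC108714021, metallothionein-like in the authors' deposited table, rose from 25.5 ± 3.53 to 93.98 ± 22.8 CPM and was chosen after its values were seen. The metal-responsive factor mtf1.L, which switches metallothionein on, had 15.2 ± 1.605 CPM in controls and 15.7 ± 1.03 CPM at lead 210 and did not pass (adjusted p = 0.87).

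Zinc carriers moved both ways. Of 39 tested genes of metallothionein and zinc transport 6 were called higher and 1 lower, with a median of 0.09. The zinc exporter slc30a1.S rose from 29.5 ± 1.18 to 38.9 ± 3.798 CPM. The vesicular zinc loader slc30a2.L rose from 0.463 ± 0.284 to 3.22 ± 0.963 CPM, with controls near the floor. The importer slc39a4.S (ZIP4), the main zinc entry route of the mammalian gut, fell. It had 22.3, 28.6, 43.00, 18.9 and 32.9 CPM in control pools A to E and 11.5, 15.5, 13.6, 12.5 and 10.7 CPM in lead 210 pools A to E, with no overlap and a log2 fold change of -1.20 ± 0.22 (adjusted p = 0.00635). The gene slc39a5.L, which the authors' deposited table calls ZIP10-like, rose from 16.8 ± 2.88 to 26.6 ± 2.39 CPM. The list's higher count was 3 without control A, without lead 210 A or without lead 210 E. The call of slc30a1.S was lost when control A or C or exposed pool A, D or E was dropped (largest adjusted p 0.0609).

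Iron genes were called in 6 of 29 tested, all higher, with a median of 0.13. That median varied between the lead 210 pools with an SD of 0.19. Ferritin heavy chains store iron, and 3 abundant ones rose. The gene fth1.1.S rose from 2901 ± 352 to 5434 ± 851 CPM, fth1.1.L from 541 ± 58.8 to 1460.5 ± 298 CPM and fth1.2.L from 279.9 ± 36.03 to 1152 ± 213 CPM. For fth1.2.L the values were 244, 244, 325, 283 and 303 CPM in control pools A to E and 1132, 1188, 1063, 896 and 1478 CPM in lead 210 pools A to E. These copies are alike, so reads may have been divided among them. The summed level of the whole iron list was 4449.8, 5065, 5402, 5475 and 5687 CPM in control pools A to E and 9774, 8674, 8322, 8351 and 11192 CPM in lead 210 pools A to E. The ferritin receptor for autophagy, ncoa4.L, rose from 26.6 ± 2.05 to 36.4 ± 3.800 CPM, a call lost with homeologs summed (adjusted p = 0.144). So did aco1.L, whose protein is iron regulatory protein 1 when it lacks its iron-sulfur cluster (from 79.9 ± 8.71 to 130.2 ± 8.13 CPM), and the transferrin receptor tfrc.L (from 21.7 ± 2.31 to 31.6 ± 2.92 CPM), the latter chosen after its values were seen.

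Copper transport had 2 of 13 tested genes called, both higher. The copper-exporting ATPase atp7b.S had 4.402, 4.54, 3.101, 3.400 and 3.55 CPM in control pools A to E and 25.7, 28.9, 33.8, 27.1 and 23.2 CPM in lead 210 pools A to E, with no overlap and a log2 fold change of 2.87 ± 0.19 (adjusted p = 6.5e-08). The mitochondrial copper chaperone sco1.L rose from 12.2 ± 0.548 to 16.6 ± 2.201 CPM.

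Lead is known to inhibit the heme enzyme delta-aminolevulinate dehydratase, encoded by alad. Neither copy of its transcript passed. The gene alad.L had 14.3, 12.4, 12.4, 12.1 and 13.9 CPM in control pools A to E and 13.7, 14.3, 13.7, 14.1 and 16.1 CPM in lead 210 pools A to E (log2 fold change 0.14 ± 0.10, adjusted p = 0.629), and the groups overlapped. The gene alad.S had 25.3 ± 6.93 CPM in controls and 33.3 ± 3.14 CPM at lead 210 (adjusted p = 0.367). The erythroid synthase of the first heme step, alas2, was at 9.41 ± 2.300 CPM in controls and 10.8 ± 1.06 CPM at lead 210 for alas2.L and 32.6 ± 6.86 CPM in controls and 38.1 ± 2.83 CPM at lead 210 for alas2.S, and neither copy passed (adjusted p = 0.639 and 0.44). The housekeeping synthase alas1.S rose from 97.1 ± 6.55 to 129.7 ± 6.35 CPM. Across the 35 tested genes of heme synthesis and breakdown, 7 were called, all higher, with a median of 0.21. Heme oxygenase, which opens the heme ring and frees its iron, rose in both copies: hmox1.L from 14.5 ± 0.921 to 24.6 ± 1.52 CPM and hmox1.S from 8.600 ± 0.984 to 14.9 ± 2.65 CPM. The mitochondrial ABC transporters abcb6.L and abcb10.S rose from 30.9 ± 1.55 to 50.4 ± 3.85 CPM and from 8.74 ± 0.308 to 14.7 ± 2.45 CPM. The authors' deposited table calls the last a pseudogene.

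The ER chaperones had the most called genes of any list when both homeologs of a pair were counted. Of 50 tested chaperones and disulfide isomerases, which fold secreted and membrane proteins, 20 were called, all higher, and the median was 0.28. The summed level of the list was 3151, 3440.4, 3486, 3508 and 3553 CPM in control pools A to E and 4179.8, 4085, 4172, 3962 and 4331 CPM in lead 210 pools A to E. All 5 exposed sums were above all 5 control sums. The master chaperone BiP is encoded by hspa5. The copy hspa5.L had 58.03, 63.2, 54.4, 62.2 and 61.6 CPM in control pools A to E and 115, 98.8, 95.7, 95.9 and 108 CPM in lead 210 pools A to E (log2 fold change 0.78 ± 0.063, adjusted p = 2.75e-07). The copy hspa5.S, which the authors' deposited table calls hspa5.L, had 68.8, 77.8, 63.01, 78.9 and 74.1 CPM in control pools A to E and 152, 141, 119, 128 and 154 CPM in lead 210 pools A to E (log2 fold change 0.94 ± 0.078, adjusted p = 3.47e-07). In both copies every exposed pool was above every control. GRP94 (hsp90b1.L) rose from 91.1 ± 3.11 to 178 ± 16.8 CPM, hyou1.S from 13.7 ± 1.06 to 23.2 ± 1.73 CPM and the disulfide isomerase creld2.S from 2.05 ± 0.318 to 6.77 ± 1.39 CPM. The secreted factor manf rose in both copies, manf.L from 9.996 ± 1.16 to 18.4 ± 2.06 CPM and manf.S from 12.8 ± 2.13 to 22.96 ± 2.76 CPM. Further called members were pdia4.L (from 49.7 ± 3.61 to 77.997 ± 8.22 CPM), pdia6.L (from 59.01 ± 7.301 to 90.6 ± 5.82 CPM) and the calcium-binding calr.L (from 255 ± 16.2 to 348 ± 24.3 CPM). These and manf were chosen after their values were seen. With each pair of homeologs summed, 12 ER chaperone genes were called, and calr was not (adjusted p = 0.152). The carbonyl and quinone reductases then also had 12.

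ER-associated degradation removes misfolded proteins. None of 35 tested genes of ER-associated degradation was called (1 higher with DESeq2), with 31 positive fold changes and a median of 0.10. The member with the smallest p, herpud1.S, had 27.96 ± 1.83 CPM in controls and 33.3 ± 2.797 CPM at lead 210 (adjusted p = 0.0895). The transcripts of the regulators gave no call: xbp1.L had 81.6 ± 13.5 CPM in controls and 87.4 ± 11.3 CPM at lead 210 (adjusted p = 0.779), and atf4.L had 561 ± 47.9 CPM in controls and 562 ± 41.7 CPM at lead 210 (adjusted p = 0.997). Of 38 sensors and factors of the unfolded protein and integrated stress responses, 2 were called (5.26%, beside 1.9% of all genes tested). The factor cebpb.L rose from 27.1 ± 3.93 to 37.3 ± 4.97 CPM, and ddit3.L (CHOP) rose from 13.4 ± 1.97 to 18.4 ± 1.96 CPM. The call of cebpb.L was lost when control A, C, D or E or exposed pool A or E was dropped (largest adjusted p 0.0897). The call of ddit3.L was lost when control A, B or E or exposed pool A, C, D or E was dropped (largest adjusted p 0.105). Of 54 aminoacyl-tRNA synthetases only the methionine enzyme was called, in both copies (3.7%, beside 1.9% of all genes tested). The copy mars1.L rose from 8.46 ± 0.599 to 12.7 ± 2.85 CPM and mars1.S from 11.7 ± 1.46 to 16.6 ± 3.51 CPM. The first call was lost when control A or exposed pool A was dropped (largest adjusted p 0.075) and the second when control A, B or C or exposed pool A or E was dropped (largest adjusted p 0.129). The second was also lost with upper quartile scaling and with the 10 libraries alone (largest adjusted p 0.0821). The translocon, glycosylation and ER-Golgi list had 5 of 105 called (4.76%), all higher with log2 fold changes of 0.23 to 0.44. Its count was 0 without control A, 1 without control C, 2 without control E or without lead 210 A, B, C or E, 3 without control B or D, 9 with DESeq2 and 2 with homeologs summed. Among genes that supply serine, asparagine and proline and carry amino acids, 1 of 52 was called (1.92%, beside 1.9% of all genes tested). It was the cystine importer slc7a11.S given above, and the count was 2 without lead 210 E.

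**Figure D3:**
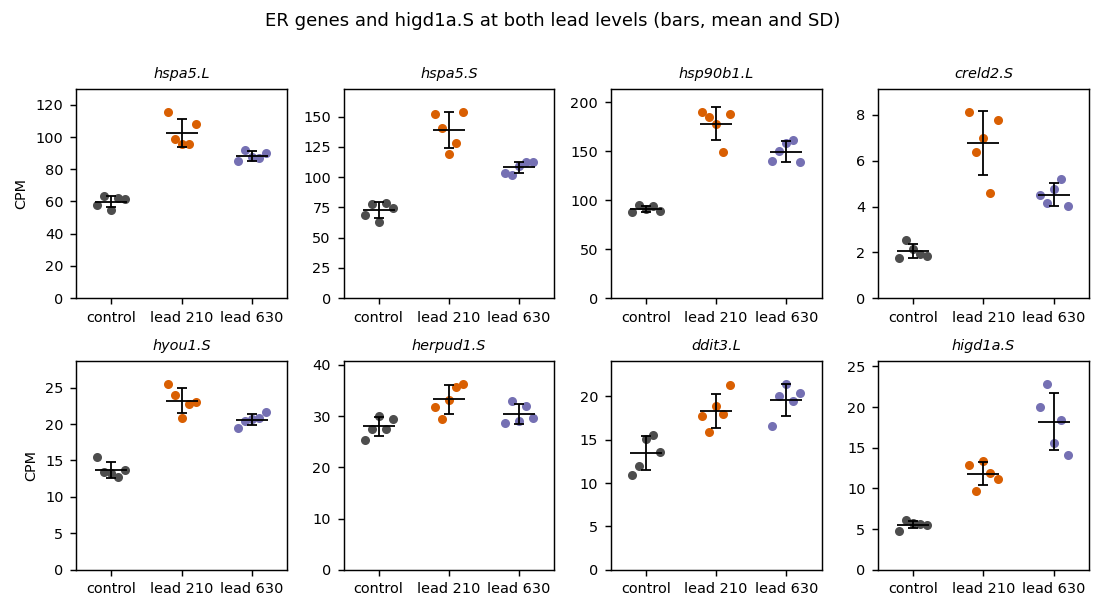
CPM of 7 ER and stress genes and of higd1a.S in control (grey), lead 210 (orange) and lead 630 (purple) libraries, each on its own linear axis from 0; points are pools A to E, bars the mean and SD (n = 5). The BiP genes hspa5.L and hspa5.S were higher in all lead 210 pools than in all controls, and their lead 630 means (88.2 and 108 CPM) lay between the other two; herpud1.S was not called.

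The proteasome degrades marked proteins. It had 5 of 80 tested subunits called, all higher, and 69 of 80 fold changes were positive, with a median of 0.10. The subunit psma2.S had 22.8, 23.2, 23.03, 22.9 and 24.2 CPM in control pools A to E and 30.5, 29.6, 29.8, 28.3 and 30.6 CPM in lead 210 pools A to E (log2 fold change 0.36 ± 0.054, adjusted p = 0.000528), a small change that was still larger than the spread of either group. The proteasome count was 1 without control A, 3 without control C or without lead 210 A, 9 with DESeq2 and 2 with homeologs summed. Of 69 cytosolic and mitochondrial chaperones 4 were called (7 with DESeq2), and all 4 work in mitochondria: hspd1.S (HSP60) rose from 42.7 ± 2.26 to 66.8 ± 5.59 CPM, its partner hspe1.S from 14.8 ± 0.833 to 23.6 ± 2.64 CPM, hspa9.L (mortalin) from 72.7 ± 3.53 to 94.8 ± 4.600 CPM and hspa9.S from 64.4 ± 3.397 to 79.2 ± 3.15 CPM. The call of hspa9.S was lost when control A or E or exposed pool A, D or E was dropped (largest adjusted p 0.0885). Autophagy and lysosome genes had 8 of 71 called, all higher, with a median of 0.08. The membrane proteins lamp2.S and lamp1.S rose from 53.4 ± 3.67 to 81.8 ± 5.96 CPM and from 163 ± 10.4 to 227 ± 13.5 CPM, and cathepsin Z rose in both copies (ctsz.S from 109.9 ± 6.91 to 171 ± 14.9 CPM, ctsz.L from 42.3 ± 6.73 to 68.7 ± 5.58 CPM). The lysosome count was 5 without control A, D or E or without lead 210 A. No cytosolic ribosomal protein gene was called: 130 of 132 had negative fold changes, with a median of -0.12, while the median over all genes was -0.002. Their summed level overlapped between the groups, at 74872, 74700.0, 82029, 85623 and 94479 CPM in control pools A to E and 69305, 71404, 80927, 75712 and 81523 CPM in lead 210 pools A to E. None of 77 ribosome biogenesis genes was called (1 higher with DESeq2).

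Fatty acids are burned in mitochondria and peroxisomes. Of 87 tested genes of fatty acid oxidation and peroxisomes 11 were called, all higher, and 76 fold changes were positive, with a median of 0.17. The bifunctional enzyme ehhadh.S of peroxisomal oxidation had 70.8, 73.2, 85.2, 74.95 and 82.4 CPM in control pools A to E and 111, 125, 117, 109 and 99.6 CPM in lead 210 pools A to E (log2 fold change 0.54 ± 0.082, adjusted p = 0.000548), and the groups did not overlap. The gene decr2.L, which handles unsaturated fatty acids, rose from 22.7 ± 3.55 to 33.97 ± 1.62 CPM. The list's count was 7 without control A, B or C or without lead 210 C, 6 without control D or lead 210 D and 5 without lead 210 A. The respiratory chain had 1 of 139 genes called (0.719%), below the 1.9% of all genes tested. It was cox15.S, which makes the heme of cytochrome c oxidase (from 15.6 ± 0.737 to 23.8 ± 2.07 CPM). In that list 118 fold changes were positive, with a median of 0.06, and the count was 3 without control B or without lead 210 B. That median varied between the lead 210 pools with an SD of 0.092, and the summed levels of the groups overlapped. Glycolysis and glucose transport had 2 of 72 called (2.78%), close to the 1.9% of all genes tested. They were the glucokinase gck.L (from 11.5 ± 1.702 to 18.97 ± 2.08 CPM) and the glucose carrier slc2a2.S (from 2.74 ± 0.442 to 6.62 ± 1.86 CPM). The call of slc2a2.S was lost with its homeologs summed (adjusted p = 0.275).

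In amino acid metabolism the called genes were mostly those of phenylalanine and tyrosine breakdown. The last enzyme of that route, fah.L, had 24.4, 25.3, 28.1, 25.7 and 25.3 CPM in control pools A to E and 64.3, 60.8, 60.1, 58.3 and 65.8 CPM in lead 210 pools A to E, with little spread and no overlap (log2 fold change 1.26 ± 0.066, adjusted p = 2.59e-09). The enzyme 2 steps before it, hgd.L, rose from 44.8 ± 7.48 to 63.9 ± 7.98 CPM. The step between them is catalysed by gstz1, whose rise is given with the glutathione transferases. The first enzyme of the route, pah.S, rose from 11.5 ± 3.56 to 20.8 ± 3.26 CPM, and that call was lost when control A, C, D or E or exposed pool A, B, C, D or E was dropped (largest adjusted p 0.123). It was also lost without a filter and with homeologs summed (largest adjusted p of these settings 0.315). Of 48 genes of amino acid breakdown 4 were called in all, all higher, and 2 without control A or without lead 210 A or D. The fourth, the urea cycle gene otc.S, rose from 0.484 ± 0.205 to 1.53 ± 0.573 CPM, and its call was lost when control A or C or exposed pool A, C or D was dropped (largest adjusted p 0.0885). It was also lost with limma-voom (adjusted p = 0.0587).

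Lipid uptake and packaging genes were called in part, in whole bodies that do not show the tissue. The sterol importer npc1l1.S, of the intestinal brush border in mammals, had 4.06, 2.201, 3.64, 5.26 and 3.82 CPM in control pools A to E and 17.6, 12.1, 8.99, 14.5 and 13.9 CPM in lead 210 pools A to E, with no overlap and a log2 fold change of 1.83 ± 0.18 (adjusted p = 5.17e-06). The lipoprotein receptor ldlr.L rose from 13.03 ± 1.19 to 19.7 ± 3.14 CPM, a call lost with its homeologs summed (adjusted p = 0.186). These were the 2 called of 44 tested cholesterol genes (4.55%, beside 1.9% of all genes tested). Of 34 lipoprotein genes 3 were called higher and 1 lower. The transfer protein mttp.1.L, which loads lipid on apolipoprotein B, rose from 14.9 ± 1.89 to 24.98 ± 3.69 CPM, a call lost with homeologs summed (adjusted p = 0.0713). The apolipoprotein B gene apob.L had 1.89, 2.91, 4.34, 2.75 and 1.94 CPM in control pools A to E and 8.697, 16.4, 7.45, 9.45 and 3.85 CPM in lead 210 pools A to E. Lead 210 B was highest and lead 210 E overlapped the controls. Its call was lost when control A, B, D or E was dropped (largest adjusted p 0.0713) and with homeologs summed (adjusted p = 0.707). The higher count of the list was 1 without control A, B, D or E, and with homeologs summed no lipoprotein gene was called in either direction. The lower gene, apoa5.S, fell from 2.89 ± 0.415 to 1.37 ± 0.583 CPM, and that call was lost when control A, B, C, D or E or exposed pool B, C, D or E was dropped (largest adjusted p 0.115). It was also lost with the replicate letter as a further term and with homeologs summed (largest adjusted p of these settings 0.359). Of 31 genes of fat synthesis lpin2.S alone was called (3.23%, beside 1.9% of all genes tested). It rose from 20.2 ± 1.88 to 26.8 ± 3.89 CPM. Its call was lost when control A, B, D or E or exposed pool A, B, C or D was dropped (largest adjusted p 0.113). It was also lost with homeologs summed, limma-voom or the 10 libraries alone (largest adjusted p 0.291).

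Among tissues, the enterocytes, the absorbing cells of the gut, had the most called markers: 8 of 36 were higher and 1 was lower. Of the 36 fold changes 34 were positive, with a median of 0.43. The summed level of the list was 2219, 1902, 3177, 2439 and 2923 CPM in control pools A to E and 3717, 4298, 3543, 3526 and 2845 CPM in lead 210 pools A to E. The sums overlapped, since lead 210 E lay below control C and control E. The brush border lactase lct.2.L had 96.7, 82.9, 115, 107 and 129 CPM in control pools A to E and 329, 370.4, 266, 310.4 and 266 CPM in lead 210 pools A to E, with no overlap and a log2 fold change of 1.54 ± 0.15 (adjusted p = 5.72e-06). The peptidase enpep.L had 29.1, 21.2, 31.96, 30.1 and 25.8 CPM in control pools A to E and 79.4, 104, 71.1, 70.4 and 38.3 CPM in lead 210 pools A to E. Lead 210 E was the lowest exposed pool and still above all controls (log2 fold change 1.39 ± 0.27, adjusted p = 0.0128). The microvillar cadherin cdhr2.L rose from 22.5 ± 5.06 to 45.1 ± 8.61 CPM and the vitamin B12 receptor subunit amn.L from 3.500 ± 0.651 to 6.86 ± 1.48 CPM. The count of higher enterocyte genes was 5 without control A, without control B or without lead 210 A, and 13 with DESeq2. The further called brush border genes were the microvillar myosin myo1a.L, the cadherins cdhr5.L and cdhr5.S and the peptidase dpp4.L, chosen after their values were seen. The call of myo1a.L (log2 fold change 0.66 ± 0.14) passed with each library left out in turn and was lost with the 10 libraries alone or with homeologs summed (largest adjusted p 0.052). That of cdhr5.S (0.82 ± 0.17) was lost when control A or B or exposed pool A was dropped (largest adjusted p 0.0635), that of cdhr5.L (0.73 ± 0.16) when control A, B or D or exposed pool A or B was dropped (largest adjusted p 0.0644) and that of dpp4.L (1.14 ± 0.26) when control A, B, D or E or exposed pool A, B, C or D was dropped (largest adjusted p 0.0898). The call of cdhr5.S was also lost with the replicate letter as a further term (adjusted p = 0.0554), and that of dpp4.L without a filter (adjusted p = 0.0549). The contribution of cell number was not tested.

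The lower enterocyte gene, the water and glycerol channel aqp10.L, had the largest fall among the called genes named here. It had 15.3, 7.95, 9.51, 9.63 and 22.2 CPM in control pools A to E and 2.46, 4.098, 2.51, 2.45 and 2.39 CPM in lead 210 pools A to E. Every exposed pool was below every control (log2 fold change -2.23 ± 0.34, adjusted p = 0.00115). The zinc importer slc39a4.S, given above, also fell. The gut hormone gene pyy.L, from a list of 32 gut and islet endocrine genes of which no other was called, rose from 2.62 ± 0.684 to 5.62 ± 1.26 CPM, and its call was lost when exposed pool D was dropped (largest adjusted p 0.06). The called share of that list was 3.12%, beside 1.9% of all genes tested. In the lung list the phosphate transporter slc34a2 was called in both copies, of 10 genes tested. The copy slc34a2.L rose from 16.1 ± 3.83 to 30.9 ± 3.26 CPM. The copy slc34a2.S was at or near the floor in controls (0.515, 0.355, 0, 0.0809 and 0.222 CPM) and at 1.88, 2.85, 2.21, 4.77 and 2.45 CPM at lead 210. This transporter is known from intestine as well as lung in mammals. None of the 9 stomach genes, 19 mucus cell genes or 65 liver plasma protein genes was called. In the liver list DESeq2 called 2 lower and limma-voom 1 lower, and the replicate letter as a further term gave 1 higher. The liver list had a median of -0.21, which varied between the lead 210 pools with an SD of 0.25. Its member with the smallest p, the thyroid hormone carrier ttr.L, was at 31.1 ± 3.01 CPM in controls and 18.3 ± 5.62 CPM at lead 210 (adjusted p = 0.0712).

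**Figure D4:**
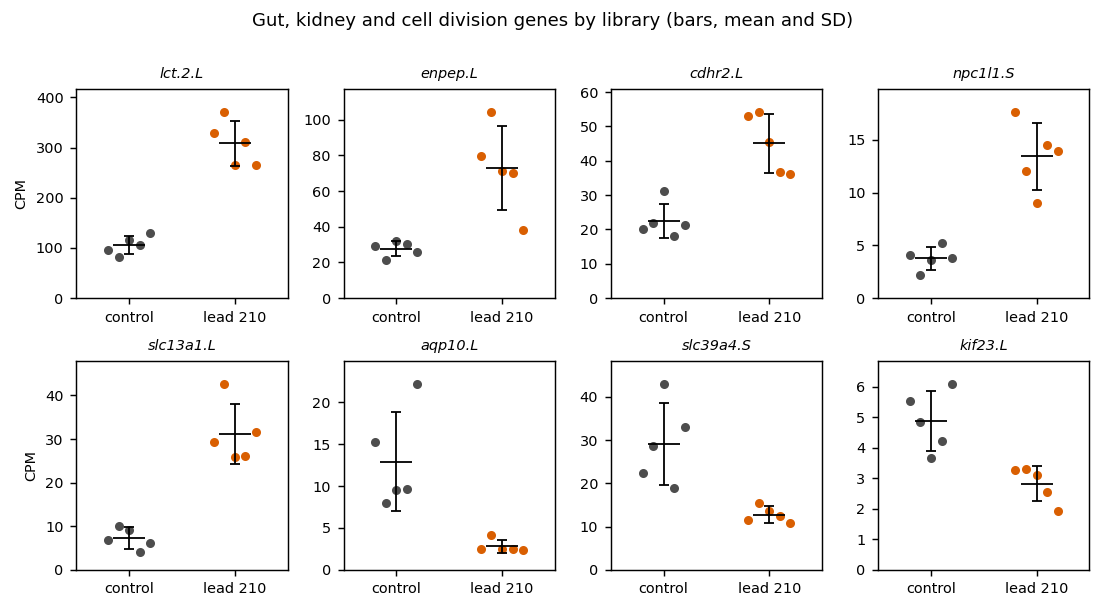
CPM of 8 gut, kidney, zinc uptake and cell division genes in each control (grey) and lead 210 (orange) library, each on its own linear axis from 0; points are pools A to E, bars the mean and SD (n = 5). The brush border genes lct.2.L and enpep.L and the sulfate carrier slc13a1.L lie higher in all lead 210 pools, and aqp10.L, slc39a4.S and kif23.L lie lower. The 8 genes were picked among called genes.

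The exocrine pancreas list had 13 of its 40 genes tested, and none was called. Its median of -3.07 goes with a single library, control B. The carboxypeptidase cpa1.L had 0.0572, 537, 5.13, 0.0809 and 0.0554 CPM in control pools A to E and 0.2899, 0.146, 7.52, 0.545 and 0.332 CPM in lead 210 pools A to E. The chymotrypsin ctrc.L had 0.172, 611, 6.57, 0.405 and 0.277 CPM in control pools A to E and 0.0725, 0.585, 16.00, 0.9997 and 0.398 CPM in lead 210 pools A to E, and the lipase cel.2.L had 0, 222, 2.32, 0.162 and 0 CPM in control pools A to E and 0, 0.2195, 3.39, 0.182 and 0 CPM in lead 210 pools A to E. The zymogen transcripts were thus very high in control B, low in control C and lead 210 C and close to 0 in the other 7 libraries. The secretory granule gene gp2.S did not show that pattern and had 3.09, 3.62, 5.75, 5.02 and 4.43 CPM in control pools A to E and 6.09, 6.15, 7.74, 5.41 and 7.36 CPM in lead 210 pools A to E (adjusted p = 0.115).

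**Figure D5:**
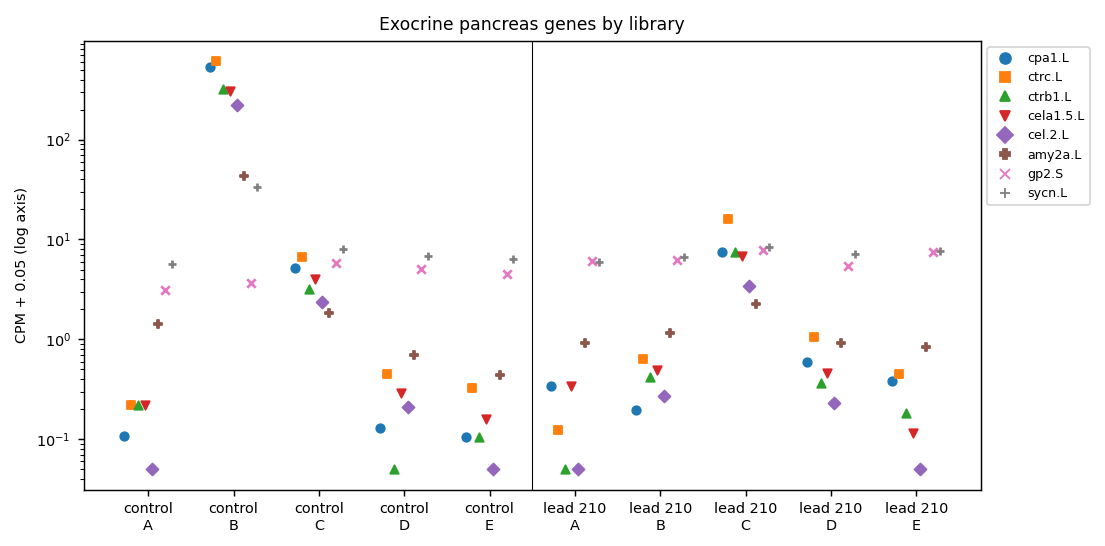
CPM plus 0.05 on a log axis for 8 exocrine pancreas genes (symbols) in each control and lead 210 library. Control B holds 222 to 611 CPM of cpa1.L, ctrc.L, ctrb1.L, cela1.5.L and cel.2.L, controls A, D and E and lead 210 A, B, D and E hold at most 1.00 CPM of each, and gp2.S does not stand apart in control B.

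None was called among markers of keratinocytes (69 tested), mucus cells, ionocytes (20), multiciliated cells (66), skeletal muscle (44), heart (22), erythroid cells (24), endothelium (28), leukocytes (20), neurons (62), glia (27), lens (78) or pigment cells (12). DESeq2 called 1 lower gene each in keratinocytes, mucus cells, multiciliated cells, skeletal muscle and glia, and 1 higher in erythroid cells. With the replicate letter as a further term, 1 keratinocyte gene was higher, and 1 erythroid and 1 neuron gene were lower. Leaving out 1 library gave up to 3 lower calls in multiciliated cells. All 20 ionocyte markers had positive fold changes, with a median of 0.29. The ionocyte gene with the smallest p, the anion exchanger slc26a4.2.L, was at 10.9 ± 1.48 CPM in controls and 17.4 ± 3.63 CPM at lead 210 (adjusted p = 0.217). Among skin keratinocytes the smallest p belonged to krt78.2.L, at 9.34 ± 0.994 CPM in controls and 6.51 ± 0.766 CPM at lead 210 (adjusted p = 0.0844). Among multiciliated cells it belonged to the differentiation gene ccno.S, at 1.31 ± 0.3705 CPM in controls and 0.674 ± 0.0963 CPM at lead 210 (adjusted p = 0.0639), and among skeletal muscle to the creatine kinase ckm.S, at 28.6 ± 9.59 CPM in controls and 17.2 ± 2.85 CPM at lead 210 (adjusted p = 0.101). Most fold changes were negative among neuron markers (median -0.13), glia (-0.13), multiciliated cells (-0.14) and skeletal muscle (-0.18), and no member passed. Between the lead 210 pools, these medians had SDs of 0.131 for neurons, 0.0535 for glia, 0.0999 for multiciliated cells and 0.19 for skeletal muscle. The erythroid globin hbg2.L had 5.37, 7.95, 12.3, 23.2 and 9.53 CPM in control pools A to E and 43.1, 24.7, 43.2, 53.8 and 26.3 CPM in lead 210 pools A to E. All 5 exposed pools were above all controls, and it did not pass (log2 fold change 1.74 ± 0.50, adjusted p = 0.123). Globin copies are alike, and their separate counts are uncertain.

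The falls were few. Of the lower genes named here, aqp10.L, slc39a4.S and pcolce2.S passed with every library left out in turn, and the others did not. Genes of cell division gave 3 of the 69 tested in mitosis, all lower (4.35%, beside 0.144% of all genes tested called lower). Of the 69 fold changes 65 were negative, with a median of -0.27. The kinesin of cytokinesis kif23.L had 5.55, 4.83, 3.68, 4.21 and 6.09 CPM in control pools A to E and 3.26, 3.29, 3.096, 2.54 and 1.92 CPM in lead 210 pools A to E, and the groups did not overlap (log2 fold change -0.79 ± 0.18, adjusted p = 0.0252). The cyclin-dependent kinase cdk1.L fell from 7.69 ± 0.9495 to 5.25 ± 1.01 CPM, and the chromosomal passenger subunit incenp.L from 12.2 ± 1.097 to 8.100 ± 1.604 CPM. The call of kif23.L was lost when control A, B or E or exposed pool D or E was dropped (largest adjusted p 0.0813), that of cdk1.L when control A, C, D or E or exposed pool A, D or E was dropped (largest adjusted p 0.0982) and that of incenp.L when control A, B, C, D or E or exposed pool A, B, D or E was dropped (largest adjusted p 0.146). The count of mitosis genes was 0 without control A or E or without lead 210 D or E, 1 without control B or D or lead 210 A, and 5 without lead 210 C. Of 55 DNA replication genes the helicase subunit mcm5.S alone was called, a share of 1.82% that rests on this single gene. It fell from 5.72 ± 0.724 to 3.65 ± 0.6996 CPM. Its call was lost when control A, B, D or E or exposed pool A, C, D or E was dropped (largest adjusted p 0.124). It was also lost with limma-voom or homeologs summed (largest adjusted p 0.131). The call of incenp.L was also lost without a filter, with limma-voom and with homeologs summed (largest adjusted p 0.0573). That of cdk1.L was also lost with the 10 libraries alone and with the replicate letter as a further term (largest adjusted p 0.0752). None of 26 p53 targets was called, and the smallest p belonged to bax.S at 3.16 ± 0.496 CPM in controls and 4.49 ± 0.571 CPM at lead 210 (adjusted p = 0.0971).

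Cartilage forms the tadpole skeleton at this age. Of 44 cartilage and bone genes 38 had negative fold changes, with a median of -0.28. The median of the list varied between the lead 210 pools with an SD of 0.24. The cartilage collagen col9a3.S alone was called (2.27% of the list). It had 177, 138, 149, 165 and 95.2 CPM in control pools A to E and 94.2, 119, 96.6, 85.4 and 65.3 CPM in lead 210 pools A to E. Control E lay below lead 210 B and lead 210 C, so the groups overlapped (log2 fold change -0.65 ± 0.16, adjusted p = 0.0434). Its call was lost when control A, B, C or D or exposed pool A, C, D or E was dropped (largest adjusted p 0.116), and also without a filter, with the 10 libraries alone and with homeologs summed (largest adjusted p 0.121). The cartilage count was 5 without control E or without lead 210 B and 0 on leaving out any of the other 8 libraries. It was 4 with DESeq2, 9 with the replicate letter as a further term and 0 with homeologs summed. The same gene was the only one called of 53 collagens (1.89%, beside 0.144% of all genes tested called lower). The collagen count was 4 without control E, 3 without lead 210 B and 0 without any other library. It was 3 with DESeq2, 7 with the replicate letter as a further term and 0 with homeologs summed. The collagen-processing enhancer pcolce2.S fell from 11.9 ± 0.984 to 7.63 ± 1.51 CPM, and its groups did not overlap. The collagen chaperone serpinh1.S and the growth factor mdk.S, both chosen after their values were seen, fell from 53.5 ± 7.75 to 41.5 ± 3.72 CPM and from 91.5 ± 6.23 to 76.9 ± 3.15 CPM. The muscle growth inhibitor mstn.2.S, named growth/differentiation factor 8-like in the authors' deposited table, fell from 2.43 ± 0.474 to 1.02 ± 0.404 CPM, a call lost when control A, B, D or E or exposed pool A, C, D or E was dropped (largest adjusted p 0.139). It was also lost with limma-voom (adjusted p = 0.0502). Otospiralin (otos.L) fell from 8.38 ± 1.198 to 5.17 ± 1.04 CPM, a call lost when control A, C or D or exposed pool A, B, D or E was dropped (largest adjusted p 0.0983) and with homeologs summed (adjusted p = 0.0909). The scaffold gene iqgap3.L, which is expressed with cell division, fell from 5.94 ± 0.766 to 3.899 ± 0.522 CPM, a call lost when control A, B or E or exposed pool A, B or D was dropped (largest adjusted p 0.0997). The sulfotransferase chst8.L fell from 5.32 ± 0.546 to 3.56 ± 0.5700 CPM, a call lost when control A, B, C or D or exposed pool A, B, D or E was dropped (largest adjusted p 0.131). It was also lost without a filter and with the replicate letter as a further term (largest adjusted p of these settings 0.0547). The call of serpinh1.S was lost when control A, B, D or E or exposed pool A, C, D or E was dropped (largest adjusted p 0.137), with limma-voom, with the 10 libraries alone and with homeologs summed (largest adjusted p of these settings 0.0879). The call of mdk.S was lost when control A, D or E or exposed pool A, B, C or D was dropped (largest adjusted p 0.0823).

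In the eye, 1 of 63 rod and cone genes and 1 of 16 visual cycle genes were called, both lower. Over all genes tested 0.144% were called lower, and the share of each eye list rests on a single gene. The disc rim protein prph2.L fell from 44.5 ± 4.02 to 34.7 ± 1.49 CPM, a call that was lost when control E or exposed pool A was dropped (largest adjusted p 0.0787) and with homeologs summed (adjusted p = 0.218). The retinal photoisomerase rgr.S fell from 46.2 ± 3.63 to 32.7 ± 4.63 CPM, a call that was lost when control A, B, C or D or exposed pool B, D or E was dropped (largest adjusted p 0.106). It was also lost with the replicate letter as a further term (adjusted p = 0.0563). In the visual cycle list, 15 of 16 fold changes were negative and the median was -0.30. Its count was 2 without lead 210 A or C, 0 without control A, B, C or D or lead 210 D or E, and 4 with DESeq2. The rod and cone count was 4 with the replicate letter as a further term and 0 with homeologs summed. In the thyroid hormone axis the inactivating deiodinase dio3.L fell from 13.3 ± 1.53 to 9.58 ± 1.19 CPM, a call that was lost when control D or exposed pool A was dropped (largest adjusted p 0.0563). The iodide-salvaging enzyme iyd.L rose from 1.77 ± 0.596 to 3.49 ± 0.705 CPM. The lower count of that list was 2 without lead 210 D and 0 without control D or lead 210 A.

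Inflammation, NADPH oxidases and the clock gave no call in 36, 12 and 18 tested genes, though DESeq2 and limma-voom each called 1 NADPH oxidase gene lower. The oxidase organizer noxo1.S was at 4.59 ± 1.94 CPM in controls and 1.89 ± 1.12 CPM at lead 210 (adjusted p = 0.0711). Of 33 immediate early genes the RNA-decay factor zfp36.L alone was called (from 61.5 ± 3.79 to 76.3 ± 4.702 CPM), and with homeologs summed it was not (adjusted p = 0.205). Of 24 hypoxia genes igfbp1.S alone was called, an insulin-like growth factor binding protein (from 47.00 ± 9.92 to 82.4 ± 12.1 CPM), and with homeologs summed it was not called (adjusted p = 0.0822). The called shares of the immediate early and hypoxia lists, 3.03% and 4.17%, each rest on a single gene, beside 1.9% of all genes tested.

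Many called genes lay outside the lists, and those of this paragraph were chosen after their values were seen. Several belong to the gut lining in mammals. The cadherin cdh17.L rose from 22.4 ± 5.15 to 39.01 ± 5.86 CPM, the brush border adaptor anks4b.L from 2.48 ± 0.5905 to 5.13 ± 0.594 CPM, clrn3.L from 3.31 ± 0.693 to 6.54 ± 1.75 CPM and the tight junction gene cldn15.1.L from 4.33 ± 1.12 to 8.51 ± 1.46 CPM. The plant sterol exporter is built from a pair of subunits, and both rose: abcg5.S from 3.296 ± 1.37 to 7.25 ± 1.81 CPM and abcg8.S from 4.39 ± 1.53 to 8.52 ± 1.56 CPM. The call of abcg5.S was lost when control A, B or D or exposed pool A, B or C was dropped (largest adjusted p 0.0997). It was also lost with limma-voom and with the 10 libraries alone (largest adjusted p of these settings 0.0636). Anion exchangers related to the sulfate carriers rose as well, slc26a3.3.S from 1.96 ± 0.974 to 8.68 ± 2.51 CPM, slc26a3.2.S from 5.27 ± 1.01 to 11.5 ± 2.73 CPM and slc26a7.L from 3.82 ± 1.22 to 10.05 ± 2.98 CPM. The chloride channel cftr.L rose from 2.31 ± 1.11 to 5.29 ± 1.09 CPM, a call lost with the 10 libraries alone and with homeologs summed (largest adjusted p 0.0739). The water channel aqp8.L, in contrast to aqp10.L, rose from 2.13 ± 0.591 to 5.44 ± 1.59 CPM, a call lost when exposed pool D was dropped (largest adjusted p 0.0514). The enterocyte list did not hold these transcripts. They were picked among called genes, so they are no further test of that list. Gut genes outside it that were not called were not counted.

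Other called genes outside the lists handle electrophiles, damaged protein or vitamins. The ion channel trpa1.L, a sensor of reactive chemicals in sensory nerves of mammals, rose from 3.83 ± 0.684 to 7.21 ± 1.17 CPM. The AN1-type zinc finger gene zfand2a.L, known in mammals as induced by arsenite, rose from 1.62 ± 0.689 to 4.14 ± 0.923 CPM. Pirin (pir.L) rose from 8.14 ± 1.69 to 39.98 ± 8.36 CPM, and aifm2.S, which regenerates the antioxidant form of coenzyme Q, rose from 30.8 ± 3.77 to 63.3 ± 5.52 CPM. The selenophosphate synthetase sephs3.L, listed as sephs2.S in the authors' deposited table, rose from 67.2 ± 3.29 to 104 ± 4.71 CPM, and selenoprotein W, selenow2.L, from 33.04 ± 9.46 to 132 ± 34.6 CPM. The multivitamin transporter slc5a6.L rose from 37.6 ± 2.19 to 60.8 ± 7.45 CPM, the riboflavin kinase rfk.S from 11.6 ± 0.8604 to 19.5 ± 2.24 CPM and the folate hydrolase ggh.L from 31.5 ± 3.16 to 54.96 ± 7.29 CPM. The phytanic acid oxidase phyh.L rose from 11.6 ± 2.22 to 25.4 ± 2.14 CPM. The hypoxia-associated mitochondrial genes higd1a.L and fam162a.L rose from 13.5 ± 3.24 to 38.8 ± 9.71 CPM and from 14.4 ± 2.34 to 33.4 ± 6.54 CPM. All of these were chosen after their values were seen.

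Xenopus laevis keeps homeologs, paired copies of many genes from an ancient genome doubling, marked .L and .S. Both copies were tested in 7016 pairs, and at least 1 copy was called in 227. Both were called in 38 pairs, in the same direction in all 38. In the other 189 pairs the uncalled copy had the same sign in 160, with a median log2 fold change of 0.20 in the called direction, and over all pairs 65.4% share a sign. Where the copies are nearly identical, the split of reads between them is uncertain. Genes described here with both copies called include keap1, hmox1, hspa5, txnrd1, gpx1, papss2, slc13a1, slc22a4, comt, mars1, manf, sqor and ctsz.

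The higher and the lower level were compared directly. No gene passed between lead 630 and lead 210 (0%) in edgeR's test, with 1260 of 27060 genes at an unadjusted p under 0.05. With no difference at all, about 1 in 20 genes would reach that p, and 1260 is fewer than that. DESeq2 called 6, limma-voom 0, and edgeR with the replicate letter as a further term 0. With that further term 2108 genes had an unadjusted p under 0.05. Of the 515 genes called at lead 210, 399 were also called for lead 630 against control, a comparison that shares its controls. Of the 476 higher genes, 256 had a higher estimate at lead 630 than at lead 210. A p that misses the threshold does not show that the levels act alike.

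Of all 27060 genes tested, 1260 reached an unadjusted p under 0.05 between the levels, the share against which the list counts below are to be read. Among the ER chaperones, 30 of the 50 had lower estimates at lead 630 than at lead 210, and 9 of these reached an unadjusted p under 0.05, while none of the 20 with higher estimates did. The BiP copy hspa5.S was at 108 ± 4.85 CPM at lead 630, a log2 difference from lead 210 of -0.36 ± 0.077 (unadjusted p = 0.00017). The isomerase creld2.S was at 4.52 ± 0.481 CPM (unadjusted p = 0.00139) and hsp90b1.L at 149.6 ± 10.6 CPM (unadjusted p = 0.00201). These ER genes were picked by their p at lead 210 against control, and the same lead 210 pools enter this contrast. Their lower estimates at lead 630 are thus not independent of that choice. On the other side, 10 of the 42 reductases of carbonyls and quinones had higher levels at lead 630 at an unadjusted p under 0.05, and 1 lower. The quinone reductase nqo1.L was at 96.6 ± 13.4 CPM at lead 630 (unadjusted p = 0.00119). The mitochondrial hypoxia-inducible protein higd1a.S had 4.802, 6.11, 5.71, 5.67 and 5.49 CPM in control pools A to E and 12.9, 9.73, 13.3, 11.95 and 11.2 CPM in lead 210 pools A to E and reached 18.2 ± 3.47 CPM at lead 630 (unadjusted p = 8.98e-05). Enterocyte genes had lower estimates at lead 630 in 32 of 36, with 3 at an unadjusted p under 0.05. Keratinocyte genes, none of which was called at lead 210, had lower estimates in 59 of 69, with 11 at an unadjusted p under 0.05. Other lists also leaned in a single direction. Estimates at lead 630 were higher in 130 of 132 cytosolic ribosomal protein genes (1 at that p) and in 57 of 63 rod and cone genes (7). They were lower in 51 of 53 collagens (4) and in 17 of 20 ionocyte genes (5). The other genes with the smallest p between the levels were the axon guidance receptor dcc.L, at 5.67 ± 0.715 CPM, and the cannabinoid receptor cnr1.L, at 10.6 ± 1.505 CPM, both higher at lead 630 than their 3.93 ± 0.533 CPM and 7.83 ± 0.885 CPM at lead 210. The syndecan sdc4.S, at 13.8 ± 2.15 CPM against 21.3 ± 3.06 CPM, the fatty acid elongase elovl3.L, at 2.099 ± 0.293 CPM against 3.68 ± 0.652 CPM, and the sialyltransferase st8sia6.L, at 0.9000 ± 0.316 CPM against 2.42 ± 0.774 CPM, were lower. None of these differences passed the adjusted threshold.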

How the data were processed

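Poly(A) RNA was sequenced with a directional kit, per the labels' protocols. The authors deposited whole-number counts per Entrez gene ID for 15 libraries, made with Trim Galore, HISAT2, kallisto and edgeR in roles that the submitters' processing notes do not give. Not given in the sources used here are the genome build, the annotation, the tool that counted and its strand setting. The authors also deposited their own comparison tables with log2 fold changes, a likelihood-ratio score and p-values, of which only gene names were used.

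IDs were named from RefSeq's table for Xenopus_laevis_v10.1 (33597 of 37018), otherwise from the authors' deposited tables (1468), and 1953 were left without a name. The symbols of the 2 sources differ for 12815 IDs, the homeolog letter included. Genes passing edgeR's filterByExpr by group were scaled by TMM and tested with a robust quasi-likelihood fit over all 15 libraries (edgeR 4.0.16, R 4.3.3, biological coefficient of variation 0.142), with Benjamini-Hochberg adjustment over 27060 genes and a threshold of 0.05. The SE is the estimate over the root of its F statistic. Alternatives were RLE and upper quartile scaling, other filters, DESeq2 1.42.0, limma-voom (limma 3.58.1), the 10 libraries alone, a replicate block, each library left out and homeologs summed.

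The members and lists were chosen with earlier results of these data known. Named genes are, among called genes averaging at least 1 CPM and having a proper symbol, the 12 highest and 12 lowest fold changes, the 12 smallest p and up to 5 called genes a list (the smallest p where none was called), with alad, mt4, hmox1, alas2 and keap1, and between lead levels up to 4 each way. Placeholder genes, regulators and those said to be so were chosen after their values were seen. Some genes that the rule selects are not reported here. No sequence was used.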

Additional observations from a re-analysis of the deposited data

Results flagged for a closer look

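The 5 values of each group were checked for a single pool far from the other 4, with Dixon's ratio above 0.71, in 502 gene and group combinations. In all, 28 stood apart, and chance gives about 1 in 20. Lead 210 E supplied 12 of them. Its level was the highest of its group for gclm.L (159 CPM), gsta1.L (74.6 CPM), txn.L (157 CPM), sult2a1.L (55.5 CPM), osgin1.L (29.4 CPM), tstd1.S (93.1 CPM), alad.L (16.1 CPM), xbp1.L (107 CPM) and st8sia6.L (3.78 CPM). It was the lowest for cyp4b1.2.L (37.1 CPM), crygbl.4.S (2.12 CPM) and nfe2l2.S (50.5 CPM). Among the other lead 210 pools, B stood apart for akr1c2.L (211 CPM), aqp10.L (4.10 CPM) and psmb3.L (33.1 CPM). Pool A stood apart for gstt1.L (352 CPM) and cox15.S (27.5 CPM), and pool D for slc30a2.L (4.91 CPM) and mlana.L (1.77 CPM). Among the controls, C stood apart for gstp1.L (64.2 CPM), mcm5.S (4.46 CPM), sco1.L (11.2 CPM) and slc2a2.S (3.51 CPM). Control A stood apart for me1.L (24.6 CPM) and pdia4.L (43.4 CPM), control D for abcg2.L (40.7 CPM) and slc13a1.S (2.51 CPM), and control B for LOC108701410 (1.28 CPM), named as a glucuronosyltransferase pseudogene in the authors' deposited table.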

How the results depend on the processing

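The number of called genes was 513 with RLE scaling, 491 with upper quartile scaling, 486 with no filter, 513 with a filter of 1 CPM in 5 libraries, 499 with limma-voom, 534 with the 10 libraries alone and 426 with homeologs summed. Of the 534 called with the 10 libraries alone, 461 were called in the main fit over all 15. DESeq2 called 779 genes, 662 higher and 117 lower, and 513 of them were called by edgeR. The replicate block gave 691 called genes, 603 higher and 88 lower, of which 489 were called without it. The block raised the lower calls from 1 to 9 in cartilage and bone, from 1 to 7 in collagens and from 1 to 4 in rod and cone genes. The labels do not say what the letters mean. For each gene, the log2 CPM of a pool was taken as a deviation from the mean of its group. Correlations of these deviations between same-letter control and lead 210 pools ran from 0.00364 to 0.293. By this measure pools A and E correlated best with their own letter, while B, C and D did not. With lead 630, pools A and B of lead 210 and pool B of the controls correlated best with their own letter. The letters were not taken as pairs in the main test. The first principal component did run along them, with A and B lowest and D and E highest in each of the 3 groups. What pools of the same letter share was not tested. Leaving out 1 library gave 355 to 488 called genes, 338 to 454 higher and 12 to 37 lower. The 226 called genes followed one by one were picked largely for small p or large change, and 173 of them passed in all 10 such fits. Of all 515 called genes, 345 were also called without control A and 358 without lead 210 A. The median of all genes lay between -0.018 and 0.004 over the alternatives. The sign changed in 3 uncalled genes near 0. The log2 fold change of atf4.L was -0.006 with RLE, -0.015 with upper quartile scaling, -0.001 without a filter, -0.006 with DESeq2, -0.007 with homeologs summed and -0.030 to 0.043 without 1 library. That of xbp1.L was -0.001 with homeologs summed, and that of nfe2l2.S ran from -0.036 to 0.045 without 1 library. The cause of these changes was not tested. Counts of at most 3 a library limit what can be said of genes near the floor. The planned motif search in promoters and its shorter window were not run, since no promoter sequence was used.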
